A study of Mus musculus with 8 samples.

Results

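Tetraspanins are membrane proteins that cross the lipid bilayer with several helices and bind each other and partner proteins, such as integrins and immunoglobulin-superfamily molecules, in patches of the membrane called tetraspanin-enriched microdomains. They steer partners to the cell surface, organize adhesion and receptor signalling, and mark small vesicles: CD9, CD63 and CD81 are common markers of exosomes, the vesicles that form in late endosomes and are set free when these fuse with the plasma membrane. Microglia, the macrophages of the brain, carry both broadly expressed members and members of the leukocyte lineage. The genes described are the 7 tetraspanin genes Cd81, Cd9, Cd63, Cd82, Cd37, Cd53 and Cd151, out of 46078 genes of a count table. They were selected on a measured value, since the family was taken up because Cd81 was higher with FruArg plus LPS than with LPS alone. Values of that contrast, and of Cd81 wherever LPS or FruArg+LPS libraries enter, are therefore given as a description with no test. AGE+LPS against control is the comparison in which Cd81 was tested.

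The libraries were made from polyA RNA of BV-2, a mouse microglial line that was immortalized, at passages 5 to 6. The cultures spent 4 hours without serum. Control cells received solvent. LPS cells received the endotoxin LPS (100 ng/mL), which Toll-like receptor 4 senses, for 20 hours. In the AGE+LPS group, aged garlic extract (AGE) at 0.5% v/v came 1 hour ahead of LPS. In the FruArg+LPS group it was 3 mM of FruArg, a sugar and arginine conjugate found in that extract. Each of the 4 groups had 2 libraries, described as biological replicates. Replicate 1 of every group was sequenced in lane 3 and replicate 2 in lane 6, so that lane and replicate number cannot be told apart. The library names of replicate 2 also carry a tag that those of replicate 1 lack, and later library numbers. A block for lane holds these differences too. AGE and FruArg without LPS are no part of the design described here. Total counts were 2707500 and 8995052 (control), 8720784 and 12069807 (LPS), 6795464 and 6669072 (AGE+LPS), and 4692715 and 5822113 (FruArg+LPS). FruArg+LPS replicate 1 stood apart with a count for 14607 genes, the fewest. The other libraries lay between 16341 (control replicate 1) and 18728 (LPS replicate 2).

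The cells carried the profile of macrophages. Of 13 microglia and macrophage markers, Adgre1 was the most abundant and their summed level lay between 3569 and 5517 CPM (counts scaled to a common library size, with TMM factors over the 8 libraries). The sum does not stand for each marker: Adgre1 lay at 626 and 672 CPM in control and at 2181 and 2292 CPM with FruArg+LPS. Csf1r, Cd68 and Spi1 were also higher with FruArg+LPS than in both controls, while Trem2, P2ry12, Cx3cr1, Itgam and Fcgr3 were lower. Markers that set microglia apart from other macrophages were low, with Tmem119 at no more than 1.38 CPM, Cx3cr1 at no more than 4.03 CPM and P2ry12 at no more than 9.27 CPM in any library. Summed levels reached at most 3.03 CPM for 5 astrocyte markers, 1.87 CPM for 4 neuron markers, 1.87 CPM for 4 oligodendrocyte markers, 1.56 CPM for 3 endothelial markers, 0.276 CPM for 5 B and T lymphocyte markers and 0.276 CPM for 4 fibroblast markers. In a bulk sample, fewer cells of a type and less RNA per cell cannot be told apart.

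All 7 members were counted in every library and passed the filter on low counts. Levels of different genes were compared per kilobase of exon (RPKM, from the TMM-scaled CPM). The length was that of all annotated exons of a gene merged, which can exceed the length of its main transcript. The order of genes below can depend on that length, and no other length was tried. Cd9, a fusion and adhesion regulator, and Cd53, a leukocyte member, stood far above the rest. In control cells Cd9 lay at 351 ± 62.2 RPKM (SD, n = 2) and Cd53 at 288 ± 54.9 RPKM. Their ranges overlapped, with Cd9 above Cd53 within each library (307 against 249 and 395 against 326 RPKM). In LPS cells the order was Cd53 (394 ± 146 RPKM) above Cd9 (258 ± 26.9 RPKM), with no overlap between 291 to 497 RPKM for Cd53 and 239 to 277 RPKM for Cd9. On these counts Cd53 also lay above Cd9 in all AGE+LPS and FruArg+LPS libraries. With the counts of the pseudogene Cd9-ps added to Cd9, the sum was above Cd53 in FruArg+LPS replicate 1 (484 against 425 RPKM). It was near Cd53 in AGE+LPS replicate 1 (348 against 350 RPKM). In LPS cells the sum stayed below Cd53 within each library (284 against 291 RPKM in replicate 1, 324 against 497 RPKM in replicate 2). The order in FruArg+LPS replicate 1 thus depends on where shared reads belong. On their own counts, Cd9 and Cd53 together made up 73.7% to 85.1% of the summed CPM of the 7 members in a library.

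Below them, Cd81 changed its place with the treatment. Its neighbour in the order was Cd63, the late endosomal member, whose counts are uncertain. A processed pseudogene, Cd63-ps, shares 387 windows of 50 bases with Cd63 transcripts and had 7409 counts in the 8 libraries, beside 7308 for Cd63. How the counting shared such reads is not given in the sources used here. On its own counts, Cd63 lay at 32.9 ± 3.55 RPKM in control cells, and the libraries of Cd81 (33.7 ± 0.290 RPKM) were within its range. Cd81 was under Cd63 in control replicate 1 (33.9 against 35.4 RPKM) and above it in control replicate 2 (33.5 against 30.4 RPKM). With LPS, Cd81 (18.0 ± 2.81 RPKM) was under Cd63 (36.2 ± 9.46 RPKM) and in the range of Cd82 (18.4 ± 3.12 RPKM) and Cd151 (16.2 ± 3.11 RPKM). With AGE+LPS, the ranges of Cd81 (41.7 ± 4.22 RPKM) and Cd63 (35.8 ± 5.22 RPKM) overlapped. Within each AGE+LPS library Cd81 was above Cd63 (44.7 against 39.5 RPKM in replicate 1, 38.7 against 32.1 RPKM in replicate 2). With FruArg+LPS, Cd81 (58.3 ± 7.23 RPKM) stood above Cd63 (40.3 ± 7.04 RPKM) in all libraries. With the counts of Cd63-ps added, a sum chosen after the data were seen, Cd63 lay between 61.2 and 86.3 RPKM and above Cd81 in all 8 libraries, so this order depends on where the shared reads belong. Cd37, a member of lymphocytes and other leukocytes, was the lowest in each group, between 2.59 ± 0.347 RPKM (LPS) and 3.62 ± 0.0637 RPKM (FruArg+LPS).

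**Figure D1:**
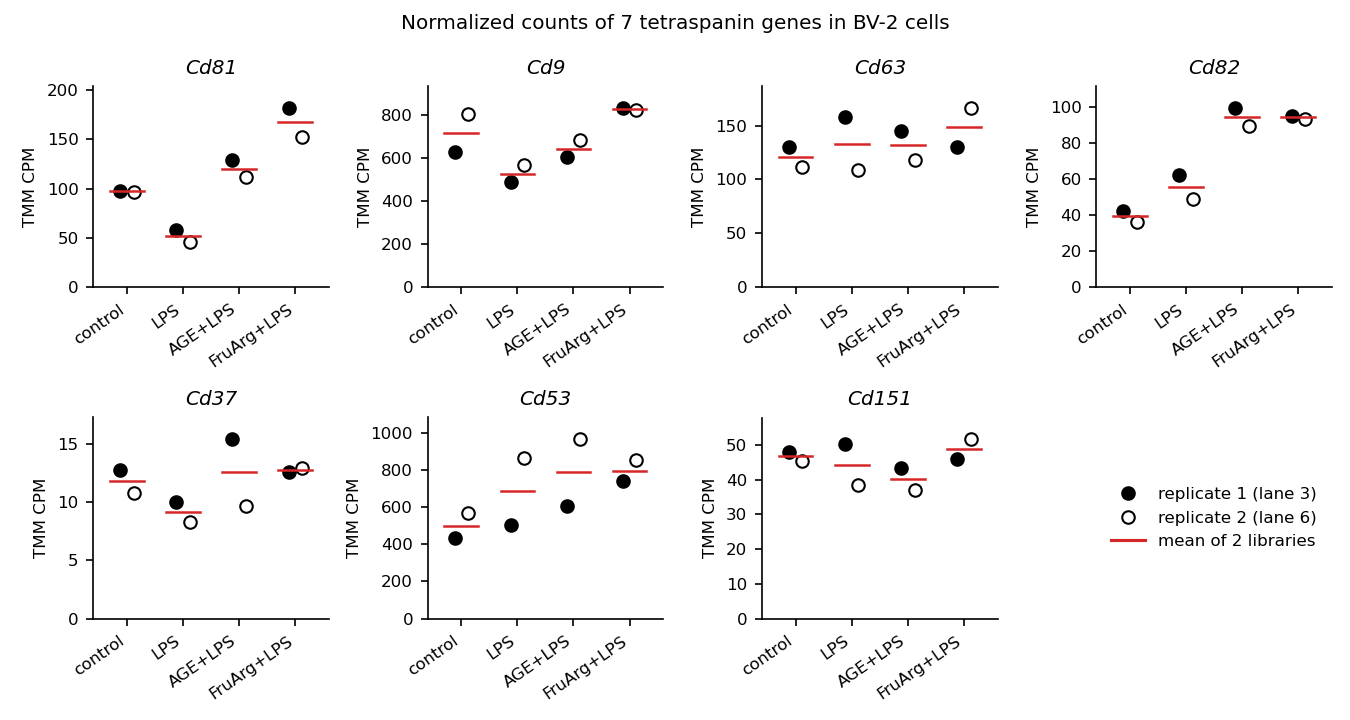
TMM-scaled CPM (vertical axes, from 0) of the 7 tetraspanin genes in the 8 libraries, by group (horizontal axes). Filled points are replicate 1, open points are replicate 2, red lines are means, and Cd81 lies between 46.0 and 57.5 CPM in the LPS libraries and between 153 and 182 CPM in the FruArg+LPS libraries.

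LPS against control cells asks what the endotoxin does to the family. Cd81, which in macrophages pairs with CD9, integrins and immunoglobulin-superfamily proteins, was counted at 97.7 and 96.5 CPM in the control libraries and at 57.5 and 46.0 CPM in the LPS libraries (replicates 1 and 2 here and below). Both LPS libraries were lower than both controls, and the gap was present in lane 3 (log2 difference -0.77) and in lane 6 (-1.07). The log2 fold change was -0.87 ± 0.21 (SE), and -1.29 with scaling by library size alone, which moves the median log2 fold change of all genes to -0.40. Low values in the LPS libraries are part of what selected Cd81, so this difference was not tested and may be larger than in LPS cultures that took no part in the selection.

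The other 6 members were tested with edgeR's quasi-likelihood test, Benjamini-Hochberg adjusted over 12888 genes. DEGs (differentially expressed genes) were defined by an adjusted p below 0.05 and a log2 fold change of at least 1 in either direction. Of the 6, 0 were DEGs by edgeR and 0 by DESeq2. Of all genes tested, 22.6% were DEGs by edgeR, and 2643 genes were DEGs by DESeq2. At an unadjusted p below 0.05 there was 1 member, Cd82, beside 5332 of the 12888 genes. With no minimum on the fold change 0 members passed, against 30.6% of all genes. With the lane as a block, which takes out the difference between replicates 1 and 2, 3 of 6 members passed at any size, against 47.8% of all genes, which is near the background. Cd9 fell by 0.40 (adjusted p 0.0249), Cd82 rose by 0.52 (0.0125) and Cd53 rose by 0.45 (0.0136) on the log2 scale in that fit. Over the alternatives that keep every library (as in all ranges of the adjusted p given below), it ranged from 0.0186 to 0.331 for Cd9, from 0.0125 to 0.724 for Cd82 and from 0.0136 to 0.877 for Cd53. Without the block, Cd82 passed at any size when LPS replicate 2 was left out (0.71, adjusted p 0.0172), and Cd53 when LPS replicate 1 was left out (0.83, adjusted p 0.0186). Each rested on that choice: with the other LPS library left out, Cd82 was at 0.37 (adjusted p 0.229) and Cd53 at 0.059 (adjusted p 0.881). Cd9 lay between -0.58 and -0.23 when each library was left out in turn. In these fits the library left alone in its group is assumed to vary like the others.

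Cd9 was counted at 628 and 808 CPM in control and at 489 and 567 CPM in LPS libraries, which do not overlap. Here and elsewhere, a gap without overlap between 2 and 2 libraries is a description, since unchanged genes can show it too. The share of all genes with such a gap is not given here. Cd82, a partner of integrins and a suppressor of cell migration, went from 42.3 and 36.2 CPM to 62.0 and 48.7 CPM, also without overlap. Cd53 went from 433 and 568 CPM to 507 and 866 CPM, with overlap, and was higher in replicate 2 than in replicate 1 in all 4 groups. Cd63 (130 and 112 CPM against 158 and 109 CPM) and Cd151 (47.9 and 45.4 CPM against 50.4 and 38.3 CPM), a binding partner of laminin-binding integrins, overlapped. Cd37 stood at 12.8 and 10.8 CPM in control and at 9.999 and 8.27 CPM in LPS libraries, a gap without overlap that did not pass the test (adjusted p 0.467).

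The 24 other tetraspanin genes of a fixed list put these changes in the frame of the family. Of them 9 had no count in any library, among them Tspan2, Tspan6 and Tspan9, and 12 were tested for LPS against control. Among the 12, 5 were DEGs and all 5 fell, against 22.6% of all genes. The blocked fit gave the same number, against 25.5% of all genes. Tspan4, a tetraspanin of migrasomes, fell from 82.2 and 58.9 CPM to 22.4 and 13.9 CPM (log2 fold change -1.92 ± 0.29, adjusted p 0.00113). Tspan14, which guides the protease ADAM10, fell from 33.3 and 32.6 CPM to 12.6 and 10.8 CPM (-1.45 ± 0.24, adjusted p 0.00197). Tspan32, a haematopoietic member, fell from 17.4 and 10.1 CPM to 4.12 and 3.68 CPM (-1.74 ± 0.38, adjusted p 0.00730). Tspan8 and Tspan10 were DEGs at means of 1.14 and 3.16 CPM over the 4 libraries, and the adjusted p of Tspan10 was 0.0360, and up to 0.0617 over the alternatives.

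Tspan13 (log2 fold change 0.90, adjusted p 0.0258) and Tspan31 (0.95, adjusted p 0.00751) rose with LPS by less than the minimum for DEGs. Tspan31 was counted at 60.4 and 51.5 CPM in control and at 109 and 99.9 CPM in LPS libraries. With scaling by library size alone both stayed positive (0.48 and 0.53), and over the alternatives the adjusted p reached 0.167 for Tspan13 and 0.0703 for Tspan31. The median log2 fold change was -0.04 for the 7 members and -0.52 for the 12 other tetraspanins tested, beside 0.02 over all genes tested. The 7 include Cd81, whose low values with LPS are part of the selection, so their median is a description.

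**Figure D2:**
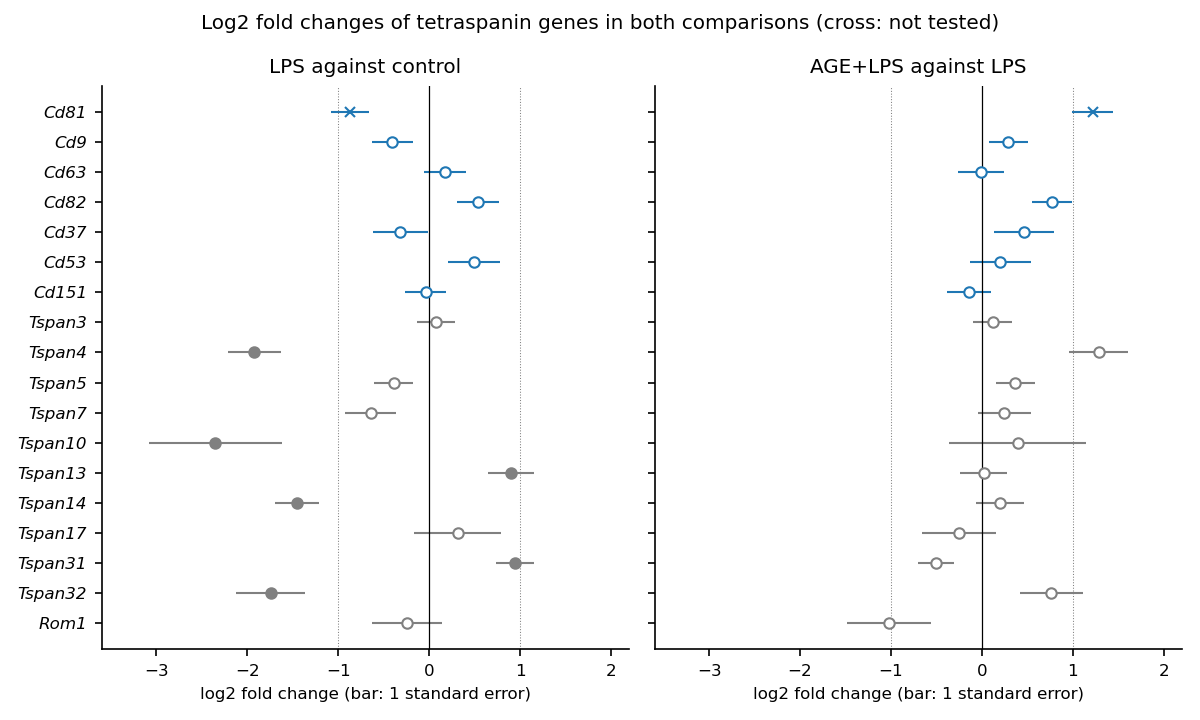
Log2 fold changes (horizontal axes, bars of 1 standard error) of the 7 selected tetraspanins (blue) and of other tetraspanins tested in both comparisons (grey), for LPS against control and for AGE+LPS against LPS. Crosses (Cd81) were not tested, filled points have an adjusted p below 0.05 without a block, dotted lines mark a log2 fold change of 1 in either direction, and Cd81 lies at -0.87 and at 1.22 in comparisons that share the LPS libraries.

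AGE+LPS against LPS asks what the extract changes in stimulated cells. Cd81 was counted at 129 and 111 CPM with AGE+LPS, against 57.5 and 46.0 CPM with LPS. All AGE+LPS libraries were above all LPS libraries, by a log2 difference of 1.16 in lane 3 and 1.28 in lane 6. The log2 fold change was 1.22 ± 0.22, or 2.32-fold. The LPS libraries are those that selected Cd81, so this difference is a description too and was not tested.

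Of the 6 other members 0 were DEGs by edgeR without the block, beside 0.796% of all genes. At an unadjusted p below 0.05 there was 1 (Cd82), beside 2194 of 12317 genes, and DESeq2 gave 0, beside 551 genes. With the block it was 0 of 6, beside 9.73% of all genes. At any size, 2 members passed with the block, beside 40.3% of all genes. These were Cd82 (log2 fold change 0.78 ± 0.11, adjusted p 1.68e-09) and Cd9 (0.29 ± 0.10, adjusted p 0.00980), and both were higher with AGE. Without the block the adjusted p was 0.141 for Cd82 and 0.535 for Cd9, and the alternatives that keep every library reached from 1.68e-09 to 0.143 and from 0.00980 to 0.783. With a library left out it was up to 0.548 for Cd82 (without LPS replicate 2) and 0.869 for Cd9 (without LPS replicate 1). Cd82 was counted at 99.4 and 89.1 CPM with AGE+LPS, above both LPS libraries (62.0 and 48.7 CPM). Cd9 stood at 605 and 686 CPM, against 489 and 567 CPM with LPS. Cd63, Cd37, Cd53 and Cd151 overlapped between the groups.

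Among 11 other tetraspanins tested for AGE+LPS against LPS, 0 were DEGs by edgeR without the block (2 at an unadjusted p below 0.05, and 1 DEG by DESeq2), beside 0.796% of all genes (2194 of 12317 at an unadjusted p below 0.05, and 551 DEGs by DESeq2). With the block Tspan4 and Rom1 were DEGs, beside 9.73% of all genes. Tspan4, at 51.5 and 36.2 CPM with AGE+LPS, lay above both LPS libraries (22.4 and 13.9 CPM) and below both controls. Its log2 fold change was 1.28 ± 0.32 without the block (adjusted p 0.105) and 1.29 ± 0.15 with it (6.27e-13), the lowest of alternatives that reached 0.109. Rom1 was low, at 1.71 and 3.03 CPM against 5.62 and 4.04 CPM. The median log2 fold change was 0.29 for the 7 members and 0.20 for the 11 others, beside 0.00 over all genes tested. The 7 again include Cd81, so their median is a description too.

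The value that brought Cd81 up was its level with FruArg+LPS, at 182 and 153 CPM, against 57.5 and 46.0 CPM with LPS. These were the highest Cd81 levels of the 8 libraries. The log2 fold change was 1.70 ± 0.25, or 3.26-fold, with 1.67 in lane 3 and 1.73 in lane 6. Of the other members, Cd9 (837 and 824 CPM, log2 fold change 0.66), Cd82 (94.9 and 93.1 CPM, 0.77) and Cd37 (12.6 and 12.9 CPM, 0.49) were above both LPS libraries. The share of all genes that lay above both LPS libraries is not given here. Cd53 (740 and 857 CPM, 0.22), Cd63 (130 and 167 CPM, 0.16) and Cd151 (45.8 and 51.7 CPM, 0.15) overlapped with LPS. Over the whole table, 0 of 12071 genes (0%) were DEGs of this contrast by edgeR, with 1543 at an unadjusted p below 0.05, 202 DEGs by DESeq2 and 766 with the block.

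FruArg+LPS against AGE+LPS sets the single compound beside the whole extract. Of the 6 members other than Cd81, 0 were DEGs by edgeR and 0 by DESeq2, and 0 had an unadjusted p below 0.05. Over all 11915 genes, 0 (0%) were DEGs by edgeR, with 668 at an unadjusted p below 0.05, 5 DEGs by DESeq2 and 107 with the block. The log2 fold changes of the 6 members lay between -0.01 (Cd82) and 0.36 (Cd9). For Cd82 the value of -0.01 ± 0.23 compares 94.9 and 93.1 CPM with 99.4 and 89.1 CPM. Cd81 itself lay at a log2 fold change of 0.48 ± 0.24 between the co-treatments, with no overlap. FruArg was given as a single compound at 3 mM and AGE as a mixture at 0.5% v/v, so doses were not matched.

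Against control cells, Cd82 was the member called in both co-treatments. From 42.3 and 36.2 CPM in control it reached 99.4 and 89.1 CPM with AGE+LPS, a log2 fold change of 1.29 ± 0.21 (2.44-fold, adjusted p 0.00274). With FruArg+LPS it reached 94.9 and 93.1 CPM, also 1.29 ± 0.20 (2.45-fold, adjusted p 0.00342). Both comparisons use the same control libraries. The co-treated libraries were all at 89.1 CPM or more, the LPS libraries lay between 48.7 and 62.0 CPM, and the controls were below these. Cd82 was the 1 DEG among 7 members for AGE+LPS against control, where 15% of all genes were DEGs, and the 1 DEG among the 6 members other than Cd81 for FruArg+LPS against control, where 17.4% of all genes were. Both counts are near the background. With scaling by library size alone, Cd82 was at 0.89 for FruArg+LPS and no longer a DEG, in a fit where the median of all genes was -0.40.

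Cd53 was higher than in control in both co-treatments, at 610 and 968 CPM with AGE+LPS and at 740 and 857 CPM with FruArg+LPS, against 433 and 568 CPM. Its log2 fold changes were 0.67 ± 0.26 (adjusted p 0.113) and 0.70 ± 0.22 (adjusted p 0.0525). With scaling by library size alone they were 0.41 and 0.30, in fits where the medians of all genes were -0.24 and -0.40. With the block the adjusted p was 0.000588 and 0.00323, in ranges over the alternatives that keep every library of 0.000588 to 0.279 and 0.00279 to 0.325, so that 2 of 7 members, Cd82 and Cd53, passed at any size for AGE+LPS, beside 38.8% of all genes. For FruArg+LPS they were 2 of 6, beside 34.4% of all genes. By DESeq2, with every library and no block, Cd53 passed at any size for FruArg+LPS (adjusted p 0.0184) and not for AGE+LPS (0.0665). Cd53 passed without the block when AGE+LPS replicate 1 was left out (0.97, adjusted p 0.00243), when FruArg+LPS replicate 1 was left out (0.81, adjusted p 0.00493) and when FruArg+LPS replicate 2 was left out (0.58, adjusted p 0.0426). It did not pass without AGE+LPS replicate 2 (0.32, adjusted p 0.362), without control replicate 1 (0.50 and 0.49, adjusted p 0.494 and 0.433) or without control replicate 2 (0.88 in both, adjusted p 0.175 and 0.0992).

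Cd81 was not distinguishable from control in AGE+LPS cells, with a log2 fold change of 0.32 ± 0.19 and an adjusted p of 0.285, although both AGE+LPS libraries were above both controls. In FruArg+LPS cells its level was above control by 0.81 ± 0.19, as a description. With scaling by library size alone these were 0.075 and 0.42, in fits where the medians of all genes were -0.24 and -0.40. Cd9, Cd63, Cd37 and Cd151 lay between -0.20 and 0.32 against control in the co-treatments, with adjusted p-values from 0.307 to 0.821. For Cd9, Cd63, Cd37 and Cd151 some of these signs turned with scaling by library size.

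Among the other tetraspanins, 2 of 12 were DEGs for AGE+LPS against control and 1 of 11 for FruArg+LPS, all lower than in control, beside 15% and 17.4% of all genes. Tspan14 was a DEG in both, at -1.27 ± 0.23 with AGE+LPS (adjusted p 0.00460) and -1.06 ± 0.26 with FruArg+LPS (adjusted p 0.0225). Its levels of 13.7 and 13.2 CPM and of 17.6 and 13.5 CPM were all below 32.6 CPM, the lower control. Tspan10, a gene of low level, was the other DEG with AGE+LPS (-1.96 ± 0.58, adjusted p 0.0447, and up to 0.148 over the alternatives). With the block, 3 were DEGs for AGE+LPS and 2 for FruArg+LPS, all lower, beside 18% and 20% of all genes. Rom1 was gained for AGE+LPS (-1.24, adjusted p 0.014, and 0.0796 without the block). Tspan32 was gained for FruArg+LPS (-1.09, adjusted p 0.0388, and 0.209 without the block). Without the block, Tspan13 rose in both co-treatments by less than the minimum for DEGs (0.90 and 0.94, adjusted p 0.0162 and 0.0222, and up to 0.0563 and 0.111). So did Tspan31 with FruArg+LPS (0.79, adjusted p 0.0325, and up to 0.200). For AGE+LPS, Tspan31 passed at any size with the block (0.43, adjusted p 0.0297, and 0.193 without it). With scaling by library size alone, Tspan13 was at 0.65 and 0.54 and Tspan31 at 0.17 and 0.40 (AGE+LPS and FruArg+LPS). Tspan4 was lower than in control at -0.66 and -0.71 and was no DEG (adjusted p 0.114 and 0.122). With the block it was at -0.67 and -0.74 (adjusted p 0.000628 and 0.00642, in ranges over the alternatives of 0.000628 to 0.220 and 0.00147 to 0.145). With scaling by library size alone it was a DEG for FruArg+LPS (-1.11).

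Known partners of tetraspanins were described from a list of 29 genes. For LPS against control, 21 were tested, 7 were DEGs that rose and 4 were DEGs that fell, beside 22.6% of all genes. Igsf8, an immunoglobulin-superfamily protein that binds CD81 and CD9 directly, rose from 199 and 158 CPM to 658 and 385 CPM (log2 fold change 1.59 ± 0.28, adjusted p 0.00267). Ptgfrn, the other direct partner of CD9 and CD81, fell from 44.8 and 35.5 CPM to 18.2 and 11.9 CPM (-1.38 ± 0.28, adjusted p 0.00547) and is named after its values were seen. The integrin chain Itga6, a partner of CD151, fell (-1.62 ± 0.20, adjusted p 0.000380), and Itga5 rose (2.03 ± 0.30, adjusted p 0.00101). Icam1, an adhesion molecule held in tetraspanin patches, rose (2.61 ± 0.23, adjusted p 6.34e-05), as did Cd74 (1.44 ± 0.23, adjusted p 0.00159) and Ifitm3 (2.54 ± 0.38, adjusted p 0.00101). Itgb1, the most abundant of the list, was at 0.48 ± 0.22 with an adjusted p of 0.135. With the block its adjusted p was 0.00985, so that it passed at any size, as 47.8% of all genes did.

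With AGE+LPS against LPS, 0 of 21 partners were DEGs by edgeR without the block, with 6 at an unadjusted p below 0.05 and 4 DEGs by DESeq2, beside 0.796%, 2194 and 551 of the 12317 genes. With the block 6 were DEGs, 4 higher and 2 lower, beside 9.73% of all genes. Igsf8 lay at 384 and 207 CPM, against 658 and 385 CPM with LPS, below it within each lane (log2 fold change -0.82 ± 0.38, adjusted p 0.323, and from 2.31e-12 with the block to 0.400 over the alternatives). Ptgfrn lay on the other side, at 40.1 and 27.1 CPM with AGE+LPS, above both LPS libraries (1.17 ± 0.32, adjusted p 0.128, and from 7.86e-10 with the block to 0.133), and was a DEG with the block and by DESeq2. With FruArg+LPS, Igsf8 was at 544 and 498 CPM and Ptgfrn at 64.9 and 46.9 CPM.

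The machinery that loads and releases exosomes was described from 25 genes, of which 21 were tested for LPS against control. Of these 3 were DEGs that rose and 1 was a DEG that fell, beside 22.6% of all genes. Sdc4, a heparan sulfate proteoglycan that binds syntenin, rose from 203 and 162 CPM to 1128 and 802 CPM (2.44 ± 0.26, adjusted p 0.000165). Hgs and Stam2, which pick ubiquitinated cargo at endosomes, rose (1.05 ± 0.24, adjusted p 0.00913, up to 0.0667 with an alternative, and 1.08 ± 0.21, adjusted p 0.00400). Smpd2, a neutral sphingomyelinase, fell (-1.74 ± 0.33, adjusted p 0.00358) at a low mean of 9.89 CPM over the 4 libraries. Sdcbp, which encodes syntenin and was the most abundant of the list, was at 0.52 ± 0.24 (adjusted p 0.128, and from 0.00470 with the block to 0.775 over the alternatives). Rab27a had 1 count and Rab27b 0 counts in all 8 libraries together, where 3 counts in a library stand for 0.276 to 0.934 CPM as the limit that a count of 0 allows, for counting error only. With AGE+LPS against LPS, 0 of 21 were DEGs by edgeR with or without the block (9.73% and 0.796% of all genes) and 0 by DESeq2, with 3 at an unadjusted p below 0.05 (2194 of 12317 genes).

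Cd63 lives in late endosomes and lysosomes, and 14 other membrane proteins of these compartments were described beside it. For LPS against control 13 were tested, 4 were DEGs that rose and 3 were DEGs that fell, beside 22.6% of all genes. Slc11a1, a metal transporter of phagosomes, rose (1.27 ± 0.21, adjusted p 0.00204), as did Laptm4a (1.39 ± 0.25, adjusted p 0.00289) and Tmem192 (1.27 ± 0.21, adjusted p 0.00164). Laptm5 fell (-1.12 ± 0.19, adjusted p 0.00222), as did Tmem106b (-1.15 ± 0.21, adjusted p 0.00270) and Ctns, the cystine transporter (-1.14 ± 0.26, adjusted p 0.00911). Lamp1, the most abundant, was at -0.11 ± 0.22 (adjusted p 0.746). With AGE+LPS against LPS, 0 of 13 were DEGs by edgeR, with 6 at an unadjusted p below 0.05, 1 DEG by DESeq2 and 1 with the block. Over all 12317 genes these were 0.796%, 2194 genes, 551 genes and 9.73%. With the block and no minimum on the fold change, 2 of the 13 were higher and 8 lower, beside 40.3% of all genes. By that rule 12 of 21 partners, 10 of 21 genes of the vesicle list and 5 of 11 other tetraspanins passed. For LPS against control, the median log2 fold changes were 0.36 for partners, 0.57 for the vesicle machinery and 0.33 for the endosome list, beside 0.02 over all genes tested. For AGE+LPS against LPS they were 0.041, -0.15 and -0.32, beside 0.00 over all genes.

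The genes whose log2 CPM followed Cd81 most closely over the 8 libraries, among 9992 genes with a mean of at least 5 CPM, were Myl12b (Pearson r 0.979), Csf1r (0.975), Fmnl3 (0.974), Tmem110 (0.969), Lpcat3 (0.959) and Enah (0.957). The points share groups, lanes and normalization, and r is given as a description. Csf1r, the receptor for the growth factor that keeps microglia alive, had means of 383, 278, 468 and 630 CPM in control, LPS, AGE+LPS and FruArg+LPS cells, beside 97.1, 51.8, 120 and 168 CPM for Cd81. Within the family the closest were Tspan5 (r 0.810, rank 274) and Cd9 (r 0.775, rank 388). Of the members Cd53 was the farthest (r 0.163, rank 3849), while Tspan13 (r 0.041, rank 4699) and Tspan31 (r -0.19, rank 6252) were farther still.

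On the genome (GRCm38, GENCODE M21) the members are spread over 5 chromosomes. Cd81 (ENSMUSG00000037706) lies on chromosome 7 from 143052739 to 143067934 on the plus strand, and Cd151 (ENSMUSG00000025510) from 141467392 to 141471473 and Cd37 (ENSMUSG00000030798) from 45233632 to 45239115 on the same chromosome. Cd82 (ENSMUSG00000027215) lies on chromosome 2 from 93419111 to 93463140, Cd53 (ENSMUSG00000040747) on chromosome 3 from 106759921 to 106790149, Cd9 (ENSMUSG00000030342) on chromosome 6 from 125460266 to 125494791 and Cd63 (ENSMUSG00000025351) on chromosome 10 from 128900989 to 128912822. Within 100 kb of Cd81, chosen after the data were seen, lie 5 other protein-coding genes. Tspan32 is one of them, upstream from 143005046 to 143019644, and fell with LPS as given above. Tssc4 was counted at 26.8 and 19.3 CPM in control and 28.0 and 16.3 CPM in LPS libraries, and Trpm5, Ascl2 and Kcnq1 had 3, 0 and 1 counts in all 8 libraries.

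Whether reads were counted by strand is not given in the sources used here, so members that overlap a gene on the other strand are uncertain to that extent. Cd81 shares 104 exon bases with R74862, Cd9 218 with Gm26728, Cd151 193 with Gm10575 and Cd37 13 with Tead2. R74862 had 330 counts in the 8 libraries, beside 5545 for Cd81, and the other 3 had 8, 12 and 1 counts. The pseudogene Cd9-ps shares 14 windows of 50 bases with Cd9 and had 6591 counts, beside 37488 for Cd9, so that it made up 14.2% to 15.7% of their sum in each library. Cd63-ps made up 41.2% to 56.7% of its sum with Cd63. The sums of Cd63 and Cd63-ps were 244 and 250 CPM in control, 269 and 225 CPM in LPS, 283 and 255 CPM in AGE+LPS and 301 and 318 CPM in FruArg+LPS libraries. LPS overlapped with control on that sum, as on Cd63 alone. FruArg+LPS was above both LPS libraries on the sum and overlapped with them on Cd63 alone. Cd63-ps holds 9.70% of the 50-base windows of Cd63 and Cd9-ps 0.703% of those of Cd9, and no pseudogene besides Cd63-ps reached 2% for a member.

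The promoter of Cd81 is shown because Cd81 is the gene that selected the family, and that of Cd53 because Cd53 is the leukocyte member that followed Cd81 least. Both are the 250 bases before the start in RefSeq (GRCm38.p6), chr7:143052500-143052749 on the plus strand and chr3:106790150-106790399 on the minus strand, with the letters GGGCGG of the GC box in capitals. All 7 members matched the RefSeq table, with 11 starts.
Cd81: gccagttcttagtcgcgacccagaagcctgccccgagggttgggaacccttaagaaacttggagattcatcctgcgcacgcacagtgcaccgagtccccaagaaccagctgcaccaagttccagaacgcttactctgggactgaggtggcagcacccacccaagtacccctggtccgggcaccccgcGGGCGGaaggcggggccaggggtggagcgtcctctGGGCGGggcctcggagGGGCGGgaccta
Cd53: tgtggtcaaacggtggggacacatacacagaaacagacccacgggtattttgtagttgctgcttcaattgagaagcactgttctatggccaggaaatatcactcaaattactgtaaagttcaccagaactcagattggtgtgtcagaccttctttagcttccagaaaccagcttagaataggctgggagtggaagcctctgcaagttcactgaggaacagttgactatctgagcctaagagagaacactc
Cd81 holds 3 GC boxes and 65.6% G and C, and Cd53 holds none and 45.2%, beside a median of 52.4% over 32841 promoters. The GC box is present on either strand in 32.7% of these promoters. In the same window of Cd81 and of Cd53, the letters of an E-box (CACGTG, in 6.02% of promoters), an AP-1 site (TGACTCA, 4.46%), an ETS core (GAGGAAGT, 2.44%), a kappaB-like site (GGNNTTTCC, 4.93%) and a TATA box (TATAAA, 12.4%) were not found on either strand. Among the other members, at least 1 start of Cd9, Cd82, Cd37 and Cd151 holds a GC box and that of Cd63 holds none. A match is a string of letters and no evidence of binding.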

How the data were processed

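RNA of 8 BV-2 cultures was sequenced. The unit of the deposited table is the count of reads per gene: the authors filtered reads with fastx_toolkit, aligned them with TopHat2 and counted them with featureCounts. How they treated strand and reads that map to several places is not given in the sources used here. The labels name RNeasy for RNA isolation and the methods TRIzol. Of 46078 genes, 45229 matched GENCODE M21 (GRCm38). Members and lists were chosen with earlier results of these data known.

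Tests used edgeR 4.0.16 (quasi-likelihood F-test, filterByExpr, TMM, two-sided) in R 4.3.3, on the 4 libraries of each pair of groups, without a block, with Benjamini-Hochberg adjustment over all genes tested. The standard error of a log2 fold change is its size divided by the square root of F. CPM are counts scaled to a common, TMM-adjusted library size, and RPKM divide them by kilobases of annotated exon.

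Genes named from the partner, vesicle and endosome lists come from the at most 6 DEGs with the largest change at 5 CPM or more and the 3 most abundant in each comparison, except Ptgfrn, and not all of these are named. Likeness to Cd81 was Pearson r of log2 CPM with 0.5 added. Alternatives were DESeq2 1.42.0, other scaling, filters and thresholds, a single fit of all 4 groups, a block for lane, and leaving out each library. The block with no minimum on the fold change, the neighbours of Cd81 and the sums with pseudogenes were chosen after seeing the data. Replicate 2 minus replicate 1 differences of log2 CPM correlated between groups over 12873 genes, with r between 0.264 (control with FruArg+LPS) and 0.649 (AGE+LPS with LPS). Counts of replicates varied beyond counting error, with chi-square per degree of freedom of 11.9 to 41.3. The fits were run on counts simulated for the LPS and control libraries only, with changes of a single size and the same assumed spread for every gene. That run does not stand for the other comparisons or for the spread of these replicates.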

Additional observations from a re-analysis of the deposited data

How the results depend on the processing

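Each group had 2 libraries, and the p-values measure only the spread between these libraries. Leaving out a library leaves its partner alone, which is then assumed to vary like the others. In such fits the number of DEGs among all genes moved too. It rose in each of them for the comparisons between LPS-treated groups, so the shares of all genes depend on single libraries. Members in FruArg+LPS against LPS, and Cd81 wherever LPS or FruArg+LPS libraries enter, were not tested, because the members were chosen there. The cause of the differences between settings was not tested.

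The number of DEGs among the 6 members other than Cd81 for LPS against control was 0 by edgeR, with 1 at an unadjusted p below 0.05 and 0 by DESeq2. With the replicate block it was 0, and 3 members had an adjusted p below 0.05 with the block and no minimum on the fold change. All genes went from 22.6% to 25.5% and 47.8%. For AGE+LPS against LPS the number of DEGs was 0 by edgeR, with 1 at an unadjusted p below 0.05 and 0 by DESeq2. With the block it was 0, and 2 members passed with the block and no minimum, while all genes went from 0.796% to 9.73% and 40.3%. For AGE+LPS against control, over 7 members, it was 1 without and 1 with the block, and 2 passed with the block and no minimum (all genes 15%, 18% and 38.8%). For FruArg+LPS against control, over 6 members, it was 1 without and 1 with the block, and 2 passed with the block and no minimum (all genes 17.4%, 20% and 34.4%). With library size scaling it was 0, and the share of all genes for that setting is not given here.

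Library size scaling moved the median log2 fold change of all genes to -0.40 (LPS against control), 0.15 (AGE+LPS against LPS), -0.15 (FruArg+LPS against AGE+LPS), -0.24 (AGE+LPS against control) and -0.40 (FruArg+LPS against control). With it the sign turned for Cd63 in LPS against control (-0.24), for Cd63 (0.14) and Cd151 (0.012) in AGE+LPS against LPS, and for Cd37 (-0.12) and Cd53 (-0.12) in FruArg+LPS against AGE+LPS. Against control it turned for Cd63 (-0.10) and Cd37 (-0.11) in AGE+LPS, and for Cd9 (-0.16), Cd63 (-0.079), Cd37 (-0.24) and Cd151 (-0.31) in FruArg+LPS. The sign of Cd63 in AGE+LPS against LPS also turned with the block (0.0018). In FruArg+LPS against AGE+LPS it turned for Cd82 with one fit and the block (0.00099), for Cd37 (-0.0085) and Cd53 (-0.016) with genes of at least 1 count, and for Cd53 with at least 10 counts in every library (-0.0049).

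Without each library in turn, log2 fold changes crossed 0 for Cd63 (-0.11 to 0.43) and Cd151 (-0.24 to 0.16) in LPS against control, and for Cd63 (-0.26 to 0.28), Cd53 (-0.16 to 0.64) and Cd151 (-0.33 to 0.069) in AGE+LPS against LPS. In FruArg+LPS against LPS they did so for Cd63 (-0.083 to 0.44), Cd53 (-0.13 to 0.66) and Cd151 (-0.041 to 0.34), and for Cd63 in 2 of the 4 fits. In FruArg+LPS against AGE+LPS they did so for Cd63 (-0.024 to 0.34), Cd82 (-0.092 to 0.070), Cd37 (-0.28 to 0.39) and Cd53 (-0.29 to 0.38). Against control they did so for Cd9 (-0.29 to 0.050), Cd63 (-0.011 to 0.30) and Cd37 (-0.24 to 0.45) with AGE+LPS, and for Cd37 (-0.0030 to 0.25) and Cd151 (-0.0023 to 0.19) with FruArg+LPS. Of the log2 fold changes of members under all settings, 459 kept direction and call or stayed within 1 SE, 40 reversed, 1 lost the threshold and 4 moved.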
